A study of Mus musculus with 4 samples.

Results

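The MYC, MAX and MXD network is a group of basic helix-loop-helix leucine zipper transcription factors that compete for one shared partner. MYC proteins bind DNA as heterodimers with MAX at the E-box, whose core letters are CACGTG, and there raise the transcription of genes for growth, ribosome assembly and metabolism. MXD proteins and MNT also pair with MAX and bind the same element, but recruit the SIN3 histone deacetylase corepressor, so that the balance between both kinds of dimer sets the output of E-box genes. In fibroblasts, Myc is a classical serum-induced gene whose short-lived mRNA falls when cells leave the cycle.

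The network was followed here through 9 genes, found by their symbols among the 47937 gene rows of the count table: the MYC family (Myc, Mycn and Mycl), the common partner Max, and the antagonists Mxd1, Mxd3, Mxd4, Mxi1 and Mnt. Total RNA had been sequenced from mouse embryonic fibroblasts (MEF cells), connective tissue cells grown from mouse embryos. The cells had been left untreated or exposed to genistein, a soy isoflavone and tyrosine kinase inhibitor, at 50 µM for 24 h. Each of the 2 groups had 2 libraries. The sample titles name the control cells wild-type and give no genotype for the exposed cells. The study calls the control cells untreated. In its other assays the study uses untreated for cells given DMSO, the solvent, alone. Whether libraries of a group came from separate cultures is not given in the sources used here, so the p-values measure the spread between these libraries, which may be technical. All 9 genes passed the filter on low counts, with raw counts from 124 to 2853 per library.

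Between 28591958 and 31464284 reads were counted per library. The fibroblast label was checked against its markers. Collagens, Vim and Fn1 were abundant. The 12 fibroblast markers summed to between 412658 and 444730 normalised counts in each library, most of them from Col1a1, Col1a2, Col3a1, Vim and Fn1. Of the 10 markers tested, 8 were called lower at an adjusted p-value under 0.05 in edgeR and 2 (Fn1 and Dcn) higher. Over all tested genes, 38.2% were called lower and 33.5% higher. Thy1 had no count in any library (a count of 0 allows up to 3 counts per library), Lum had at most 10 counts and was below the filter, and Postn had 21 and 26 counts in untreated cells and 5 and 11 in exposed cells. Of the marker lists of other cell types, the epithelial sum went from 452 and 462 normalised counts without genistein to 137 and 132 with it. In that list 2 of 6 genes (Krt8 and Krt18) were called lower, and Epcam and Krt5 were at 0 in all libraries. The immune sum, 210 and 193 in untreated cells, was 546 and 570 in genistein cells, with 2 of 6 genes (Cd68 and Csf1r) called higher and Adgre1 and Cd3e at 0. The muscle sum was 57.9 and 46.6 against 324 and 309, with 2 of 6 genes (Des and Acta1) called higher and Myod1 at 0. The endothelial sum was 26.0 and 33.9 against 99.4 and 100.2, with 1 of 6 (Kdr) called higher. The neural sum was 422 and 365 against 353 and 314, with 1 of 6 genes (Nes) called lower and 3 of 6 at 0. In these lists of other cell types, the genes called were the only ones that passed the filter on low counts. Beside them, 33.5% of all tested genes were called higher and 38.2% lower. The part of the marker genes in the results below was not tested.

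The network genes lie on separate chromosomes, except for Mycn and Max, which are both on chromosome 12. All coordinates are on GRCm38, the assembly also called mm10. Myc spans chr15:61985391-61990374 on the plus strand, Mycn chr12:12936093-12941914 on the minus strand and Mycl chr4:122995652-123002485 on the plus strand. Max lies at chr12:76937269-76962201 on the minus strand. Of the antagonists, Mxd1 (chr6:86647042-86669161), Mxd3 (chr13:55325168-55329823) and Mxd4 (chr5:34173883-34187720) are on the minus strand, and Mxi1 (chr19:53310518-53375810) and Mnt (chr11:74830920-74845725) are on the plus strand. The counts cover the exons, which merge to between 2369 bp for Mxd3 and 8483 bp for Mxd4, and sum all transcripts of a gene, so that isoforms were not told apart. Mxd3 shares 105 bp, or 4.43% of its exons, with Prelid1 on the opposite strand. The strand setting of the counter is not given, so reads in that stretch cannot be assigned with certainty. Exons of Mxd4 and Mxi1 also overlap opposite-strand genes, Gm42846 and Gm10197, and both of these had no count in any library.

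The E-box that the network binds also occurs in promoters of the network itself, and the stretches below show where. Promoter windows of RefSeq on GRCm38.p6, which run from 250 bases before to 50 bases after a transcription start, were searched for CACGTG, a palindrome that reads alike on both strands. Of the members, 8 had a window, and 3 of these (Mxd4, Max and Mnt) held the motif, against 8.09% of the 27025 genes in the table. Myc had no window and was not searched. The variant CACGCG, searched on both strands, was found for 1 member (Mycl), against 10.5% of all genes. A match describes letters and is not a measured binding site. The windows of Mxd4 and Mxd1 are shown up to the first transcribed base of the annotation because both genes rose together, and 30 bases around the motif are shown for Max and Mnt. Capitals mark CACGTG, and all are written 5′ to 3′ on the strand of the gene.
Mxd4, chr5:34187721-34187960, minus strand: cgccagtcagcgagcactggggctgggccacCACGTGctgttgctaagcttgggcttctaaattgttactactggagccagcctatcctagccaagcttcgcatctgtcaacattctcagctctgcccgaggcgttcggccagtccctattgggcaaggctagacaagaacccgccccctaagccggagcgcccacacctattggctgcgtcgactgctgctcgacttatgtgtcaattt
Mxd1, chr6:86669162-86669409, minus strand: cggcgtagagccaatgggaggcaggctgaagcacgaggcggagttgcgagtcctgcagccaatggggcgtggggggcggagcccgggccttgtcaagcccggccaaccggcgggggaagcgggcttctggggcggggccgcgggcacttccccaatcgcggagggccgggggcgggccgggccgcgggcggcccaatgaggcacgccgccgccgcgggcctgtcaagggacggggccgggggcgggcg
Max, chr12:76962234-76962263, minus strand: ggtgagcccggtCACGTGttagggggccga
Mnt, chr11:74830789-74830818, plus strand: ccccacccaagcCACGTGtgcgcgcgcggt
In the Mxd4 stretch the motif runs from base -219 to base -214, counted from the start. The Mxd1 stretch holds no CACGTG or CACGCG and is rich in G and C, with a GC content of 78.2% against 57.5% for Mxd4. The Max motif straddles the start of its RefSeq window, from base -3 to base 3, which lies upstream of the Max span given above from GENCODE, and that of Mnt runs from base -123 to base -118.

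Genistein exposure was accompanied by opposite changes on both sides of the network. All 3 MYC family genes fell by more than 2-fold, whereas 4 of 5 antagonists (Mxd1, Mxd4, Mnt and Mxi1) rose, the largest by more than 3-fold. Mxd3 was the antagonist that fell, and Max, the partner of all of them, fell slightly. In all, 4 members were called higher and 5 lower at an adjusted p-value under 0.05 in edgeR, and no member's groups overlapped. Such calls were common in these cells, since 33.5% of the 16240 tested genes were called higher and 38.2% lower, and the groups did not overlap for 85.3% of them. With the thresholds of the study (an adjusted p-value under 0.05, a log2 fold change beyond 1 in either direction and a mean normalised count over 100), 2 members were higher (Mxd1 and Mxd4), against 3.92% of tested genes, and 3 were lower (Myc, Mycn and Mycl), against 4.16%. The median log2 fold change over all tested genes was -0.03. In bulk libraries, a change in the number of cells that carry a transcript and a change in RNA per cell cannot be told apart.

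**Figure D1:**
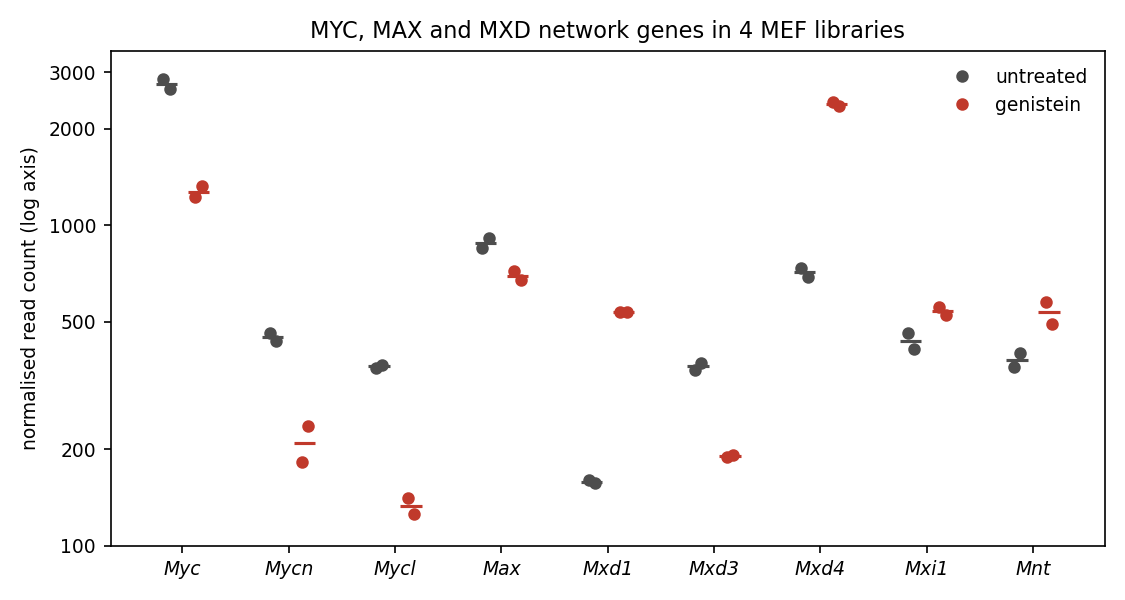
Normalised read counts of the 9 network genes in each library, on a log axis, with a point per library and a bar at the group mean (n = 2 per group). Both red points lie below both grey points for Myc, Mycn, Mycl, Max and Mxd3, and above them for Mxd1, Mxd4, Mxi1 and Mnt.

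Myc, the member of the family that most cell types express, had 2850.0 and 2663 normalised read counts in untreated cells and 1221 and 1324 in exposed cells. Both genistein libraries held less than the lower untreated library. The means were 2756 ± 133 and 1272 ± 72.9 (SD, n = 2), a 2.17-fold decrease with a log2 fold change of -1.12 (standard error 0.05, adjusted p = 4.77e-12, edgeR). Only 4.93% of the tested genes had a lower log2 fold change.

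Mycn, best known from neural progenitors and neuroblastoma, was expressed at a lower level. Its normalised counts were 460 and 434 in untreated cells and 182 and 237 in genistein cells, so that both groups were apart but the genistein libraries differed from each other. The log2 fold change was -1.10 (standard error 0.10, adjusted p = 8.4e-08, edgeR). Without genistein 1 it was -0.91, which is short of the fold threshold of the study, and without genistein 2 it was -1.30.

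Mycl, first found amplified in lung cancer, had the largest decrease in the network. Its counts were 360 and 366 without genistein and 141 and 126 with it, again with no overlap. This was a 2.72-fold decrease, with a log2 fold change of -1.44 (standard error 0.10, adjusted p = 1.81e-09, edgeR), and 2.09% of tested genes lay below it.

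Max encodes the common partner, with which MYC, MXD and MNT proteins bind the E-box. Its normalised counts, 850.1 and 914 without genistein, were 717 and 674 with it. The groups were apart, although by less than for any MYC gene, with a 1.27-fold decrease and a log2 fold change of -0.34 (standard error 0.06, adjusted p = 0.000115, edgeR). In the ranking of all tested genes this is a common change, since 30.4% had a lower value.

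Mxd1, the founding MXD repressor, which is known to appear when cells stop dividing and differentiate, was the scarcest member per length in untreated cells. It had 160 and 157 normalised counts there and 537 and 534 after genistein. Replicates lay within a few counts of each other in both groups, and the increase was 3.38-fold, with a log2 fold change of 1.76 (standard error 0.09, adjusted p = 2.08e-11, edgeR). Of the tested genes, 97.3% had a lower log2 fold change.

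Mxd4, a second repressor linked to differentiation and arrest, changed by nearly the same factor from a higher level. It rose from 733 and 691 to 2416 and 2347 normalised counts, with a wide gap between the groups. The increase was 3.34-fold (log2 fold change 1.74, standard error 0.05, adjusted p = 2.84e-14, edgeR), and 97.2% of tested genes had a lower value.

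Mnt encodes the broadly expressed repressor that is regarded as the constitutive antagonist of MYC. Its counts were 361 and 398 in untreated cells and 578 and 491 in genistein cells. The log2 fold change was 0.50 (standard error 0.09, adjusted p = 7.26e-05, edgeR). Genistein 1 was the higher of both exposed libraries, and leaving it out gave 0.38.

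Mxi1, also called MXD2, had the log2 fold change closest to 0 in the network, except with scaling factors from genes alone, with library totals or without genistein 2, where that of Max was closer. Its normalised counts were 460 and 411 in untreated and 554 and 523 in exposed cells. The groups were separated by less than the members above, with a 1.24-fold increase and a log2 fold change of 0.31 (standard error 0.07, adjusted p = 0.00147, edgeR). Leaving out untreated 2 gave the weakest value, 0.23, with an adjusted p of 0.0296 in edgeR.

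Mxd3 is the MXD gene associated with S phase and proliferating progenitors rather than with arrest. In contrast to the other antagonists it fell, from 354 and 373 to 189 and 192 normalised counts. The replicates of each group were close, and the log2 fold change was -0.93 (standard error 0.09, adjusted p = 1.33e-07, edgeR). Prelid1, with which it shares a short exonic stretch on the other strand, was also lower, at 4856 and 4654 normalised counts in untreated and 3016 and 3107 in genistein cells. The part of Prelid1 reads in the Mxd3 counts was not tested.

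**Figure D2:**
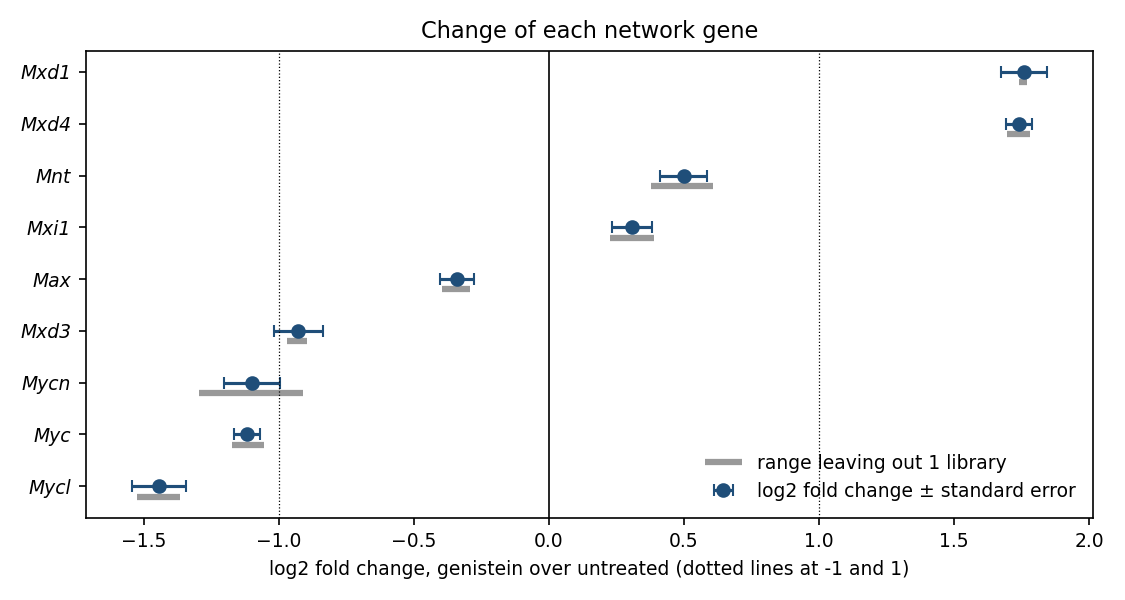
Log2 fold change of each network gene, genistein over untreated, with its standard error from edgeR (blue), and the range when each of the 4 libraries was left out in turn (grey). Mycl, Myc and Mycn lie left of -1, Mxd4 and Mxd1 right of 1, and only the grey range of Mycn, from -1.30 to -0.91, crosses a dotted line.

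To compare levels between genes, normalised counts were divided by the length of the merged exons and are given per kb. In untreated cells Myc led with 1014.5 ± 48.8 counts per kb (SD, n = 2), 4.14 times the level of Max (245 ± 12.5). Mxd3 (153 ± 5.68) and Mycn (136 ± 5.46) followed, then Mycl (89.9 ± 1.17), Mxd4 (84.0 ± 3.49), Mnt (82.0 ± 5.72), Mxi1 (63.8 ± 5.05) and Mxd1 (22.4 ± 0.31). Mxd4 and Mnt overlapped between libraries, so that their order is not resolved, and with this length the other neighbours were apart. In genistein cells Myc still led, with 468 ± 26.8 counts per kb, but Mxd4 was next with 281 ± 5.69 and stood above Max (193 ± 8.49). Mnt (115 ± 13.3), Mxd3 (80.6 ± 0.87), Mxi1 (79.0 ± 3.20) and Mxd1 (75.8 ± 0.29) came next, of which Mxd3 and Mxi1 overlapped. Mycn (63.5 ± 11.8) and Mycl (33.0 ± 2.65) were then the lowest members. The order depends on the length used. With the longest transcript in place of merged exons, an alternative chosen after seeing the data, Myc stood at 2.60 times the level of Max in untreated cells, Mxd4 (154 ± 6.40) lay above Mycl (104 ± 1.35), and Mxi1 (86.4 ± 6.84) overlapped Mnt (82.6 ± 5.77). In genistein cells Myc (544 ± 31.2), Mxd4 (515 ± 10.4) and Max (358 ± 15.7) were again the highest in that order, with Myc and Mxd4 close together, and Mnt, Mxd1, Mxd3 and Mxi1 lay between 116 and 107.

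Summed over the family, the MYC genes gave 1278 and 1202 counts per kb in untreated cells and 539 and 590.2 in genistein cells, a 2.20-fold lower mean. The 5 antagonists summed to 404 and 407 counts per kb without genistein and 647 and 616 with it, a 1.56-fold higher mean. The share of Myc within its family changed little, from 82.1% and 81.5% to 83.3% and 82.6%. Among the antagonists the composition shifted. Mxd3 made up 37.0% and 38.6% of the antagonist sum in untreated cells and 12.4% and 13.2% in genistein cells, whereas Mxd4 went from 21.4% and 20.0% to 44.0% and 44.9%. Mxd1 went from 5.60% and 5.44% to 11.8% and 12.3%, and Mnt held between 17.2% and 21.1% in all libraries.

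**Figure D3:**
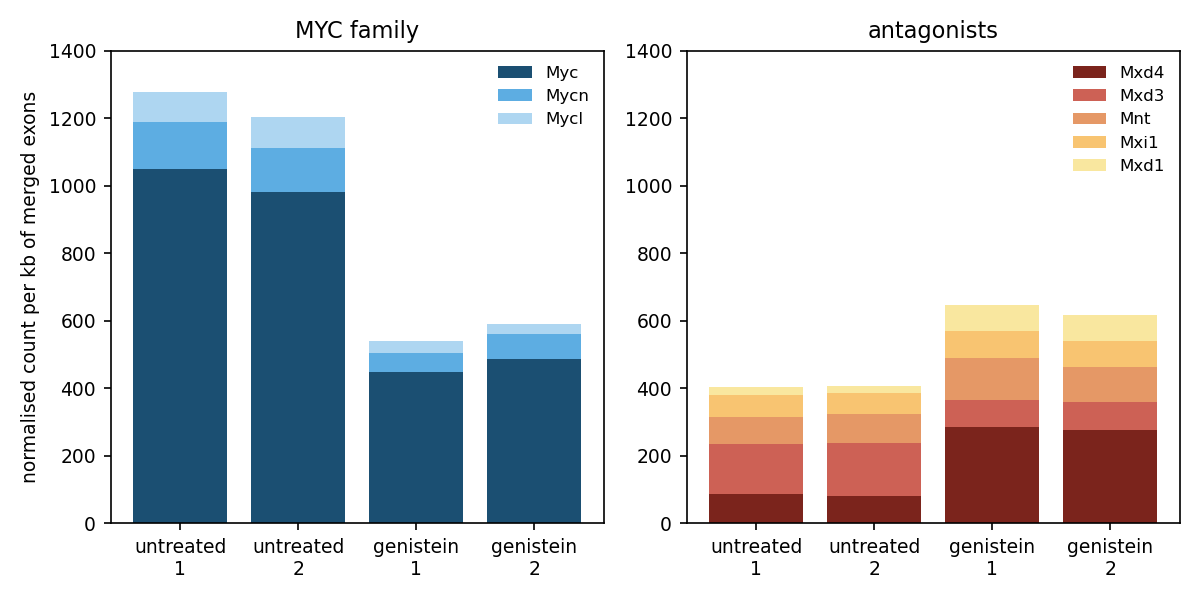
Normalised counts per kb of merged exons, stacked by gene, for the 3 MYC family genes (left) and the 5 antagonists (right) in each library. The MYC bars drop from 1278 and 1202 to 539 and 590.2, while the antagonist bars go from 404 and 407 to 647 and 616, with Mxd4 in place of Mxd3 as the largest part.

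The ratio of Myc to its summed antagonists, both per kb, put these changes in one number. It was 2.60 and 2.41 without genistein and 0.695 and 0.791 after exposure. The Myc level was thus above the antagonist sum in both untreated libraries and below it in both genistein libraries. On the log2 scale the mean ratio went from 1.32 to -0.43, a difference of -1.75 with a pooled replicate SD of 0.11. The ratio is one of RNA levels and does not measure protein or dimers. With 2 libraries against 2, an exact permutation test cannot give a p-value below 0.33, so no test was made. Relative to Max, Mxd4 moved from 0.343 to 1.45 times the Max level, and Mxd1 from 0.0914 to 0.392, whereas Myc went from 4.14 to 2.42 times. With the longest transcript as length, Myc went from 2.60 to 1.52 times the Max level, and Mxd4 from 0.339 to 1.44 times.

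Genes with the most similar profile were sought among 10271 tested genes with a mean normalised count over 100, by the Euclidean distance over the 4 libraries between log2 values centred on each gene. The nearest to Myc were Trf (distance 0.0235), Eif3d (0.0265), a subunit of a translation initiation factor, and Srsf2 (0.0303), a splicing factor. Nearest to Mxd1 were Fbxl20 (0.023), P2rx7 (0.0256), an ATP-gated ion channel, and Ccng2 (0.028), an unconventional cyclin linked to cell cycle arrest. With 4 libraries in 2 groups, this likeness mainly reflects a similar fold change.

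The genes around the network were then described by lists. In the 8 lists of partners, cofactors, regulators and targets, 78 of 80 genes were tested, of which 11 were called higher and 58 lower, against 33.5% and 38.2% of all tested genes. The parallel arm of the network runs through Mlx, which pairs with the glucose sensors MLXIP and MLXIPL and also with MXD1, MXD4 and MNT. Mlx had normalised counts of 783 and 777 in untreated and 673 and 655 in genistein cells, which gave a log2 fold change of -0.23 at an adjusted p of 0.00193 in edgeR. Mlxip rose from 1024 and 1095 to 1449 and 1298 (log2 fold change 0.38). Mga, a MAX partner that also carries a T-box domain, was not called, with a log2 fold change of -0.03 (standard error 0.03). Mlxipl and the MYC paralog Bmyc were below the filter, with at most 3.04 and 9.11 normalised counts in a library. Of the glucose-response targets of this arm, Txnip rose 1.76-fold, from 1249 and 1244 to 2142 and 2237 normalised counts, and Arrdc4 was not called (0.15), but was called higher without untreated 1 (0.24), with scaling factors from genes alone (0.19) or with library totals (0.22).

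Among the SIN3 corepressor subunits that MXD and MNT recruit, 0 of 8 genes were called higher and 6 lower. Over all tested genes, the shares were 33.5% and 38.2%. The median log2 fold change of the subunits was -0.43, and 0 passed the thresholds of the study in either direction. The largest decrease was in Rbbp7, a histone-binding subunit, at -0.72, and Hdac1 (0.03) and Sin3b (0.07) were not called, although Sin3b was called higher with scaling factors from genes alone (0.12) or with library totals (0.14). The cofactors of MYC were lower for 8 of 10 genes and higher for 2, against 38.2% and 33.5% of all tested genes. Their median was -0.75, and with the thresholds of the study 4 were lower, against 4.16% of tested genes, and 0 higher. Ruvbl2, an ATPase of the TIP60 and INO80 complexes, had the largest decrease at -1.31, and Trrap, the scaffold through which MYC recruits acetyltransferases, rose, with a log2 fold change of 0.32. Ep400 was the other called higher, at 0.15, and was no longer called without untreated 1 (0.08, adjusted p = 0.141 in edgeR).

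Regulators of MYC protein stability went both ways. Of 8 genes, 2 were called higher and 4 lower, against 33.5% and 38.2% of all tested genes. The kinase gene Gsk3b, whose product marks MYC for degradation, rose, with a log2 fold change of 0.38, as did Fbxw7, which encodes the ubiquitin ligase subunit that reads this mark, at 0.30. Skp2, another ligase subunit that targets MYC, had the largest decrease, at -0.99, and Aurka (-0.08) and Huwe1 (-0.10) were not called. Aurka was called lower with no filter on low counts (-0.10) or without untreated 2 (-0.13), and Huwe1 with no filter (-0.13), with DESeq2 (-0.11), without untreated 1 (-0.15) or without genistein 1 (-0.12). MYC protein was not measured.

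Targets that MYC is known to activate were lower almost throughout, in lists chosen with earlier results of these data known. The part of MYC in these changes was not tested. Of the 18 nucleolar and ribosome assembly targets, all 18 were called lower, against 38.2% of all tested genes. All 18 were also lower with the thresholds of the study, against 4.16%, and their median log2 fold change was -1.38. Dkc1, the pseudouridine synthase of the nucleolus, showed the largest decrease, from 4451 and 4301 to 1329 and 1306 normalised counts (log2 fold change -1.73, standard error 0.04). Ncl (nucleolin) fell by 1.28 on the log2 scale and Npm1 (nucleophosmin) by 1.12, and both had the highest counts of the list. In the list of 19 metabolic and growth targets, 17 were lower and 1 higher, against 38.2% and 33.5% of all tested genes. Their median was -0.93, and with the thresholds of the study 8 were lower, against 4.16% of tested genes, and 0 higher. Srm (spermidine synthase) had the largest decrease, at -1.58, Ldha (lactate dehydrogenase A) had -1.02 and Cdk4 -0.75. Odc1, the first enzyme of polyamine synthesis and a textbook MYC target, was not called, at 7335 and 7151 against 7108 and 7226 normalised counts (log2 fold change -0.02, standard error 0.04). Ccnd2 (cyclin D2) was called higher at 0.13, and lost the call without untreated 1 (0.10) or with a replicate block (0.13, adjusted p = 0.0516 in edgeR).

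Of the 10 targets that MYC is known to repress, 4 were called higher and 4 lower, against 33.5% and 38.2% of tested genes. Their median log2 fold change was -0.06. The higher ones were Cdkn1a, the CDK inhibitor p21, Gadd45a, Ndrg1 and Gadd45b, of which the last 3 were named after their values were seen. Cdkn1a went from 370 and 360.0 to 2597 and 2400 normalised counts, a 6.85-fold increase (log2 fold change 2.78). Gadd45a, a growth arrest gene, had a log2 fold change of 2.37, and Ndrg1, a differentiation-related gene, of 1.19. Cdkn1a and Gadd45a are also known targets of p53, and the list does not tell both inputs apart. Pdgfrb, a growth factor receptor, had the largest decrease, at -0.73. Both Cdkn1b (-0.10) and Cebpa (-0.67) lost their call with DESeq2, without untreated 1, without untreated 2 or without genistein 1. Cdkn1b also lost it with scaling factors from genes alone (-0.05), library totals (-0.03) or a replicate block (-0.10, adjusted p = 0.0661 in edgeR). Cebpa also lost it without genistein 2 (-0.69). Of the genes not called, Ndrg2 (-0.43) was called lower without untreated 1 (-0.73).

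**Figure D4:**
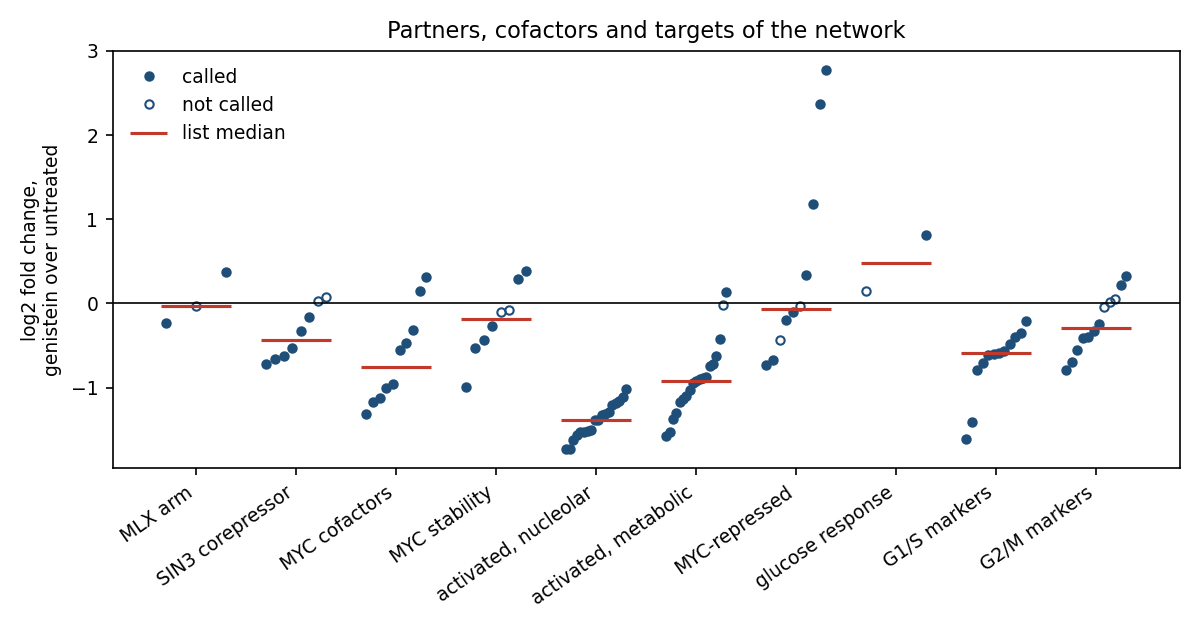
Log2 fold change, genistein over untreated, of each tested gene in 10 lists, with filled points for genes called at an adjusted p-value under 0.05 in edgeR, open points for the others and a red line at each list median. The 18 nucleolar targets all lie below -1, between -1.73 and -1.01, whereas the repressed targets spread from -0.73 to 2.78.

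Cell cycle markers were lower throughout the G1/S list and mixed in the G2/M list. Of 12 G1/S genes, 12 were called lower, against 38.2% of all tested genes, with a median of -0.59, led by Ccne1 (cyclin E1) at -1.61. Of 12 G2/M genes, 7 were lower and 2 higher, against 38.2% and 33.5% of all tested genes, with a median of -0.29. The list ranged from Ccna2 (cyclin A2) at -0.79 to Kif20a, a mitotic kinesin, at 0.32. Cdc20 was not called (0.05), but was called higher with scaling factors from genes alone (0.09) or with library totals (0.12), which made 3 higher. The summed G1/S level was 65814 and 64088 normalised counts in untreated cells and 44093 and 44210 in genistein cells. With the thresholds of the study, 2 G1/S genes were lower, against 4.16% of tested genes, and 0 G2/M genes were lower or higher. In the study's flow cytometry, the same dose and time moved most cells into G2/M and left a smaller G1 population. The part of the cell cycle distribution in the changes of Myc, Mxd3 and the other members was not tested.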

How the data were processed

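Total RNA libraries, depleted of ribosomal RNA and made with a stranded kit, were prepared from 2 untreated and 2 genistein-exposed samples of MEF cells. The authors trimmed 150 bp paired reads with Trim Galore, aligned them to mm10 with STAR and counted them over GENCODE M9 genes and repeats with TEtranscripts, so the deposited values are raw counts per gene and repeat subfamily. Genes took reads before repeats. The strand setting is not given in the sources used here.

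Counts were analysed with edgeR 4.0.16 in R 4.3.3. One entry without a name (at most 0.00314% of a library) was left out. Low counts were filtered by group, leaving 16240 genes and 1118 repeats, scaled by TMM. Groups were compared by the quasi-likelihood F test with Benjamini-Hochberg adjustment over all 17358 entries and called at an adjusted p-value under 0.05. Normalised counts are scaled to the average effective library size. Standard errors were taken as the log2 fold change over the square root of F. Symbols, coordinates and exon lengths are from GENCODE M21, on the same assembly. The deposited table has no UMIs, so counts are not independent molecules. Replicate counts varied beyond sampling noise, with a chi-square of 5.76 (untreated) and 13.2 (genistein) for each degree of freedom.

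Members and lists were chosen with earlier results of these data known. The text names all 9 members, the genes of the MLX arm, Ncl, Npm1, Odc1, Ldha, Cdk4, Ccnd2, Cdkn1a and Txnip, and the called gene with the largest change in each direction of each list; other names were added after their values were seen. Alternatives covered scaling, filtering, DESeq2 1.42.0, the thresholds of the study, a replicate block, exon length and leaving out each library.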

Additional observations from a re-analysis of the deposited data

How the results depend on the processing

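The 4 higher and 5 lower members were called under all 10 other fits (other scalings, no filter, DESeq2, a replicate block and each library left out, where a group with 1 library is assumed to vary like the other group). Their counts are limited by the thresholds of the study, which gave 2 higher and 3 lower members, and 3 higher and 30 lower genes of the 8 lists, against 11 and 58 before. Over all tested genes these thresholds gave 3.92% higher and 4.16% lower. In the other fits the list counts lay from 10 to 13 higher and from 57 to 60 lower. The difference in the log2 ratio of Myc to its antagonists, -1.75, was -1.88 with the longest transcript as length and -2.15 without division by length, a shift that comes from the lengths alone. It lay from -1.85 to -1.66 when each library was left out in turn. The replicate block gave 4 higher and 5 lower members, and among the genes named, Ccnd2 (0.13, adjusted p = 0.0516 in edgeR) and Cdkn1b (-0.10, adjusted p = 0.0661 in edgeR) lost their call; same-numbered libraries deviated with a correlation of -0.03 over 2 pairs, which does not show a pairing. Of 111 genes followed over 10 fits, 1081 of 1110 values kept their side of the threshold, 15 lost a call, 14 gained one and 0 changed direction past the threshold. With 2 libraries per group, the log2 fold change of Mxi1 lay from 0.23 to 0.39 over these fits and that of Max from -0.40 to -0.27.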
